A study of Mus musculus with 48 samples.

Results

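The genes described here encode the proteins that turn cholesterol into sex steroids. They are 10 member genes of the mouse: Star, Cyp11a1, Fdx1, Hsd3b1, Cyp17a1, Hsd17b3, Hsd17b1, Akr1c18, Cyp19a1 and Srd5a1. A probe set was taken as a member where the platform annotation gives it 1 gene symbol and that symbol is on this list. This found 10 probe sets of 22626, for 8 of the 10 genes. Star has 3 probe sets and the 7 other genes have 1 each. No probe set carries Cyp19a1 or Srd5a1 as its only symbol, so both are not analysed here.

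RNA of male and female mouse tissues was hybridised to Affymetrix arrays to look for transcripts that differ between the sexes. The 8 groups are testis, ovary and, from each sex, liver, kidney and hypothalamus, the brain region that governs the pituitary. Each group has 3 RNA samples, and each RNA sample was put on 2 arrays, the second named as a technical replicate in its title, so that 48 arrays stand for 24 RNA samples. The RNA was bought, and each RNA sample is a pool of 10 animals. The mice are untreated as far as the labels say, and strain, age and stage of the oestrous cycle are not given there. A free-text label gives total RNA for hypothalamus and polyA RNA for the remaining 4 organs, whereas another field gives total RNA throughout. Kind of RNA and tissue therefore cannot be told apart in any comparison with hypothalamus. The labels do not say that the 3 RNA samples of a group are separate pools, so p-values measure the spread between these samples, which may be technical.

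Steroid hormone synthesis starts at the mitochondrion. Star carries cholesterol to the inner membrane, the enzyme of Cyp11a1 cuts its side chain to give pregnenolone, and the ferredoxin of Fdx1 hands that enzyme its electrons. Hsd3b1 and Cyp17a1 then lead to progesterone and the androgens, and 17beta-hydroxysteroid dehydrogenases make the final testosterone (Hsd17b3, known from testis) or estradiol (Hsd17b1, known from granulosa cells of the ovary). In testis the pathway runs in Leydig cells, and in ovary it is shared by theca, granulosa and luteal cells.

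The reference table of promoters, taken from RefSeq on build GRCm38.p6, held entries for 7 of the 10 members. The 150 bases before the annotated start are shown for 4 members that stand for the patterns below. Cyp11a1 and Hsd3b1 were high in ovary and lower in testis, Hsd17b3 was a testis gene, and Fdx1 was measured in every tissue. Sequences run 5′ to 3′ on the gene's own strand, and capitals mark a match to AGGTCA (the half-site of many nuclear receptors) or to GGGCGG (the GC box) on either strand.
Cyp11a1, second of 2 annotated starts, chr9:58014802-58014951, plus strand: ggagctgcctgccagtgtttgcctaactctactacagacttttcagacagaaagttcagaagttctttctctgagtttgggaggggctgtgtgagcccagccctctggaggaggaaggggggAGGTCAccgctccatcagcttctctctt
Hsd3b1, chr3:98859795-98859944, minus strand: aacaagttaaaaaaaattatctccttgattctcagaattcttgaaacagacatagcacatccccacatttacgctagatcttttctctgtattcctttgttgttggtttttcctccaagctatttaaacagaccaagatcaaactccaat
Hsd17b3, chr13:64089202-64089351, minus strand: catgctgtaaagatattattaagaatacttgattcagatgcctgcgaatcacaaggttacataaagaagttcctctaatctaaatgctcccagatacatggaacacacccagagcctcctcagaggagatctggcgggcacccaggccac
Fdx1, chr9:51963603-51963752, minus strand: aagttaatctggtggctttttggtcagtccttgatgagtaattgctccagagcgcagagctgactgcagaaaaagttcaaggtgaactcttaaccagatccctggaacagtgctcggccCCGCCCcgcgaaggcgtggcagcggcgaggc
In the Cyp11a1 sequence the AGGTCA match begins 28 bases before the start, at -28. The Fdx1 sequence holds GGGCGG on the opposite strand from -31. Its GC content is 55.3%, against 54% for the Cyp11a1 sequence shown, 45.3% for Hsd17b3 and 34% for Hsd3b1. Both strands of the 250 bases before each start were searched. The core bound by the receptor that Nr5a1 encodes, AAGGTCA, was in none of the member windows and in 4.08% of all 32851 promoters. The shorter AGGTCA, which lies within it, was in 14% of these promoters. The TATA box, searched as TATAAA, was in 12.4% of them and in none of the 4 windows shown here. The GC box, GGGCGG, was in 32.7%, and among the members not shown it was in the windows of Akr1c18 and Srd5a1. The half-site and the GC box were added after the sequences had been seen, and a match describes letters only.

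Values are intensities, scaled so that the arrays share a 2% trimmed mean, and averaged over the 2 arrays of an RNA sample. A probe set is called dim here in a sample where it lay below the 40th percentile of its array, which was between 107 and 198. Intensities of different probe sets are not on a shared scale, so levels are compared only within a probe set. In tissue RNA, fewer cells of a type and less RNA per cell cannot be told apart. Testis held the 10 male germ cell markers measured, with a summed intensity of 86970 to 113700 against 435.2 to 539 in ovary. Ovary held all 8 oocyte markers above the dim range, and also 4 oviduct markers that summed to 10030 to 12000 there and to 1148 to 1739 in testis. The 3 adipocyte markers measured summed to 9640 to 15230 in ovary and 543 to 2019 in testis. The part of these other cells in the results was not tested. Of the marker lists for the other organs, 5 hepatocyte markers summed to 93010 or more in liver and 17500 or less elsewhere. The 7 kidney tubule markers summed to 49870 or more in kidney and 1514 or less elsewhere. The 7 hypothalamus markers summed to 8816 or more in hypothalamus and 2525 or less elsewhere. Liver also held the 4 exocrine pancreas markers measured, at 5341 to 25270 in males and 9263 to 20660 in females. Elsewhere these 4 summed to 4336 or less. The part of pancreas in the liver values was not tested.

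**Figure D1:**
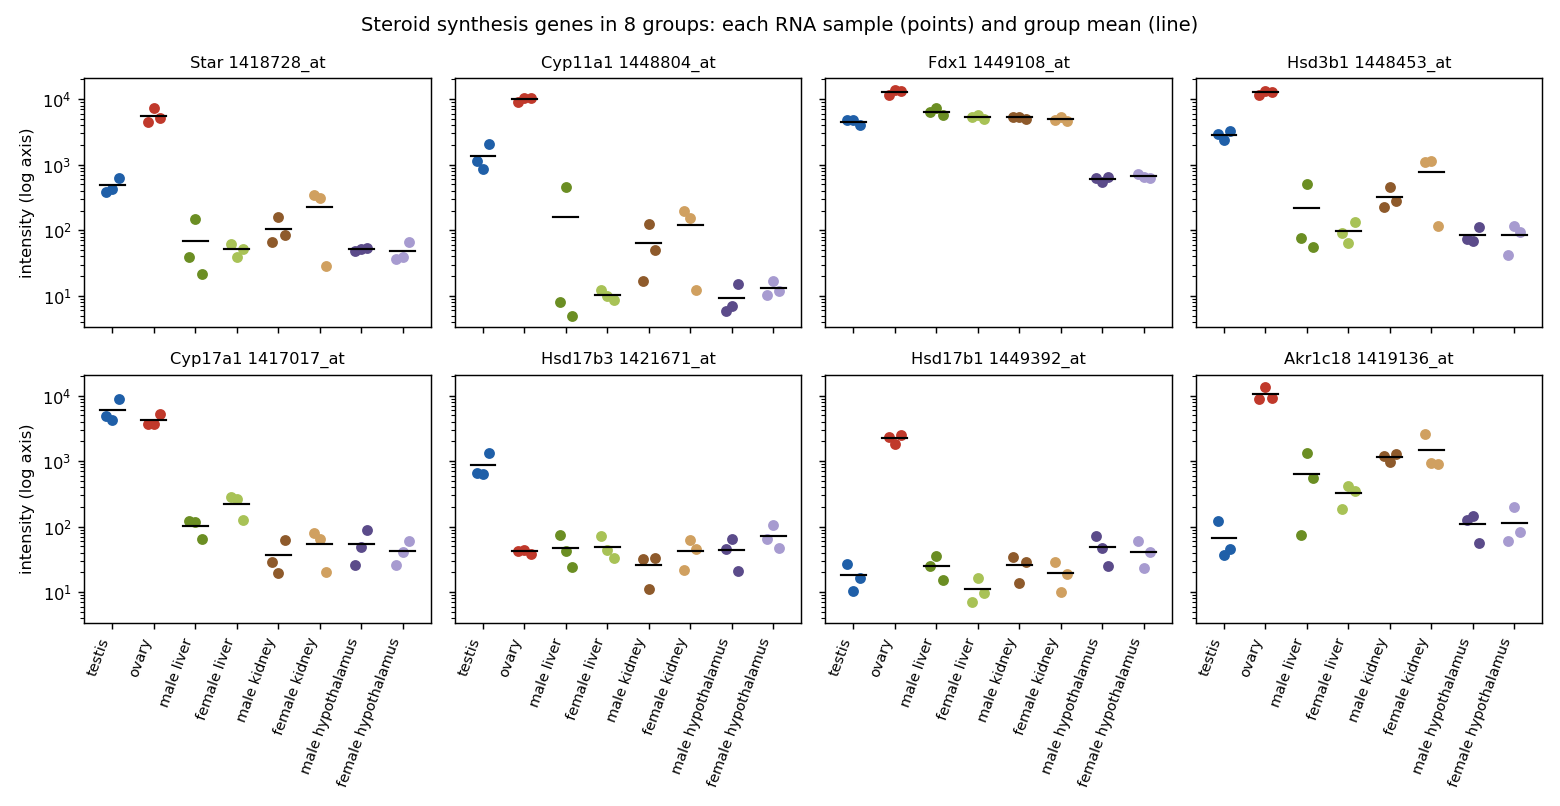
Intensity of the 8 measured genes on a log axis, 1 point per RNA sample and a line at each group mean, with the probe set above each panel. Ovary is the top group for Star, Cyp11a1, Fdx1, Hsd3b1, Hsd17b1 and Akr1c18, testis for Hsd17b3, and both lead for Cyp17a1. Fdx1 is at 547.2 or more in all 24 RNA samples, and female kidney 3 lies apart from female kidney 1 and 2 for Star, Cyp11a1 and Hsd3b1.

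Between the gonads, the steps that load cholesterol into the pathway and open it were all higher in ovary, the last step to testosterone was higher in testis, and Cyp17a1, which makes the androgen precursors, did not pass the test. Of the 10 member probe sets, 8 were lower and 1 was higher in testis than in ovary (limma, Benjamini-Hochberg adjusted p under 0.05 over 14915 probe sets tested). Testis and ovary differ widely: 70.6% of all probe sets tested were called in this comparison, 24.9% as higher and 45.7% as lower in testis, and calls among the members are read against that. Hsd17b3 was dim in every ovary sample and passed the filter on dim values only through testis, and Hsd17b1 and Akr1c18 passed only through ovary, so the direction of these 3 was fixed by the filter. By gene, the members had a median log2 difference of -2.49, against -0.35 for all probe sets tested. With arrays centred on their medians the median of all probe sets moved from -0.35 to 0.02, and 50.9% of all calls were higher in testis, against 35.3% with the trimmed mean and 45% with quantile normalization. The 9 calls kept their directions under both of these scalings.

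Star, the cholesterol carrier, was measured by 3 probe sets. On 1418728_at its intensities were 390.3, 430.7 and 634.6 in testis and 4471, 7220 and 5209 in ovary. The lowest ovary sample lay several times above the highest testis sample. The means of 485 ± 131 and 5630 ± 1420 (SD, n = 3) gave a log2 difference of -3.41 ± 0.23 (SE, adjusted p = 1.42e-06 by limma). The other probe sets gave -2.84 ± 0.24 (1418729_at) and -3.37 ± 0.23 (1449201_at), so the 3 designs had the same direction and similar size.

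Cyp11a1, the side-chain cleavage enzyme and first committed step, read 1147, 846 and 2039 in testis and 9106, 10570 and 10600 in ovary. The groups did not overlap, and the mean of 1340 ± 620 in testis against 10100 ± 854 in ovary gave a log2 difference of -2.96 ± 0.28 (adjusted p = 1.13e-05 by limma). Fdx1, its electron donor, read 4791, 4764 and 4100 in testis and 11430, 13940 and 13230 in ovary. Its difference of -1.49 ± 0.16 (adjusted p = 2.27e-05 by limma) was the smallest in size among the called members. Hsd3b1, which converts pregnenolone to progesterone, read 2923, 2372 and 3230 in testis and 11770, 13570 and 12720 in ovary. It was lower in testis by a log2 difference of -2.15 ± 0.17 (adjusted p = 3.24e-06 by limma), with 2840 ± 435 against 12700 ± 899. Hsd3b1 and Akr1c18 belong to families of closely related genes, and how far their probe sets also read relatives was not tested.

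Cyp17a1, the 17alpha-hydroxylase and lyase that both gonads need for androgens, broke this pattern. Its intensities were 4797, 4279 and 8737 in testis and 3671, 3703 and 5165 in ovary, and the ranges overlapped. Testis averaged 5940 ± 2440 and ovary 4180 ± 853, a log2 difference of 0.45 ± 0.27 (adjusted p = 0.166 by limma). The value depends on the scaling: it was 0.82 with an adjusted p of 0.0293 after median centring and 0.08 with an adjusted p of 0.826 after quantile normalization. Over all its alternatives the adjusted p ran from 0.0293 to 0.826. Without testis 3 the log2 difference was 0.14.

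Hsd17b3, the dehydrogenase that makes testosterone, was the 1 member called higher in testis. It read 652.3, 632.4 and 1330 in testis and 43, 44.12 and 37.96 in ovary, where it was dim in every sample. The log2 difference was 3.28 ± 0.26 (adjusted p = 3.67e-06 by limma). Since a dim value gives only a bound, testis was at least 5.15-fold higher, the testis mean being set against the 40th percentiles of the ovary arrays. The same floor serves for every "at least" here.

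Hsd17b1 and Akr1c18 were the ovary's counterparts. Hsd17b1, which makes estradiol from estrone, read 2346, 1851 and 2503 in ovary and 27.19, 10.55 and 16.2 in testis. It was dim in testis, at least 18.7-fold lower than in ovary, with a log2 difference of -5.10 ± 0.18 (adjusted p = 3.37e-08 by limma). Akr1c18, the 20alpha-hydroxysteroid dehydrogenase that breaks down progesterone, read 8739, 13370 and 9207 in ovary and 122.8, 36.34 and 44.81 in testis. Its log2 difference of -6.55 ± 0.28 (adjusted p = 1.04e-07 by limma) was the largest in size among the members, and testis was at least 86.3-fold lower.

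The 3 testis samples were not alike for these genes. Testis 3 had the highest value of the 3 for Star on all its probe sets, for Cyp11a1, Hsd3b1, Cyp17a1 and Hsd17b3, and the lowest for Fdx1. Its male germ cell markers summed to 86970, against 113700 and 113200 in the others, and Acrv1, an acrosome gene of spermatids, read 1117 against 4577 and 4874. Whether this bears on the members was not tested. With testis 3 left out and the same probe sets tested, the log2 difference from ovary was -3.60 for Star 1418728_at, -3.30 for Cyp11a1 and 2.95 for Hsd17b3, and the same 9 probe sets passed. With the filter applied again 8 passed, as Hsd17b3 was no longer tested.

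**Figure D2:**
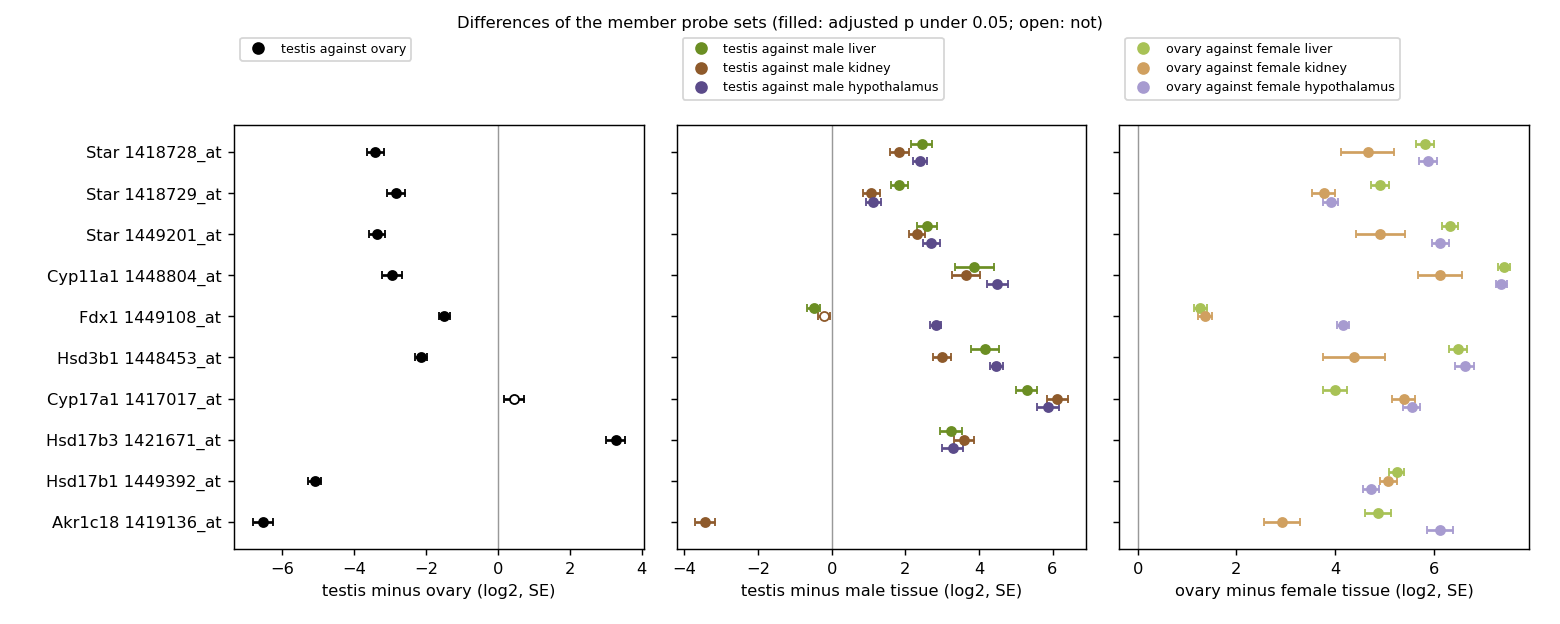
Log2 difference with its SE for each member probe set: testis minus ovary, testis minus each male tissue, and ovary minus each female tissue, with filled points where limma's adjusted p was under 0.05 and open points where it was not. Points are missing where a probe set was not tested. In testis minus ovary, Hsd17b3 lies at 3.28 and Akr1c18 at -6.55, and every point of the ovary against female tissues lies above 0.

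Genes that supply and serve the pathway were also mostly lower in testis than in ovary. The lists used here were put together with earlier results of these data known and overlap in part. Counts refer to 1 probe set per gene and are read against all probe sets tested. Of those, 24.9% were higher and 45.7% lower in testis. A listed gene that was dim in all samples of 1 gonad passed the filter only through the other, so its direction was fixed. Of 11 tested genes of cholesterol supply, 9 were lower and 2 higher in testis, with a median log2 difference of -1.34. Scarb1, the receptor that takes up cholesterol from HDL, had 1150 ± 233 in testis and 9690 ± 1920 in ovary (log2 -3.01 ± 0.21). Hmgcs1, of cholesterol synthesis, differed by -2.35, Tspo, a mitochondrial outer membrane protein, by -1.79 and Vdac1, an outer membrane channel, by -2.99. The 2 genes higher in testis were Lipe, the hormone-sensitive lipase (log2 1.08), and Acbd3 (log2 0.63), both named after their values were seen. All 4 tested electron donors and cofactors were lower in testis: Cyb5a by -1.76, Cyb5b by -1.79, Cyb5r3 by -2.39 and H6pd by -2.10. With median centring the supply list gave 2 higher and 8 lower, as Stard3 lost its call, and the electron donors stayed at 4 lower.

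Among 12 tested regulators and receptors, 11 were lower in testis and 1 was higher, with a median of -1.92. Nr5a2, a nuclear receptor of granulosa and luteal cells, had 84.1 ± 34.5 in testis and 2730 ± 361 in ovary (log2 -4.42 ± 0.21). Ptgfr, the receptor for prostaglandin F2alpha, had 100 ± 10.1 and 3150 ± 817 (log2 -4.40 ± 0.19). Esr2, an estrogen receptor, differed by -3.26 and Cebpb, a transcription factor of ovulation, by -3.20. The testis means of Nr5a2, Ptgfr and Esr2 (31.1 ± 8.9) lay in the dim range, below the lowest floor of the testis arrays, 110. These genes passed the filter through ovary, which largely set their direction, and their log2 differences rest on dim values. The count of lower genes is therefore in part set by the filter. Nr5a1, whose product switches on many steroidogenic genes, had 534 ± 280 against 2180 ± 372 (log2 -2.03 ± 0.30, adjusted p = 0.000191 by limma). The 1 gene higher in testis was Nr0b1, a repressor of that receptor, with 520 ± 33.2 against 156 ± 9.85 (log2 1.48 ± 0.14). After median centring or quantile normalization the counts were 9 lower and 1 higher, Crem and Fshr losing their calls.

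Of 15 other tested steroid enzymes, 11 were lower in testis and 1 was higher, with a median of -1.27. After median centring or quantile normalization these counts were 9 lower and 3 higher, with changed calls for Akr1c21, Hsd11b1, Hsd3b3 and Srd5a3. Akr1c14, a 3alpha-hydroxysteroid dehydrogenase, had 30.3 ± 2.95 in testis and 1610 ± 306 in ovary (log2 -4.38 ± 0.17). Hsd17b7, which serves in cholesterol synthesis and also makes estradiol, had 243 ± 44 and 3360 ± 227 (log2 -3.56 ± 0.17). Hsd11b2, which inactivates glucocorticoid, differed by -2.01 and Hsd3b7, of bile acid synthesis, by -1.94. Sult1e1, the estrogen sulfotransferase, was the 1 gene called higher in testis: it read 441.2, 285.4 and 298.3 there and 51.4, 9.792 and 7.042 in ovary (log2 2.52 ± 0.24). Akr1c14 was dim in every testis sample and Sult1e1 in every ovary sample, so the filter fixed the direction of both. The testis mean of Hsd11b2, 100 ± 11.1, also lay in the dim range, and this gene passed through ovary.

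The members tested against the other male tissues were in part those that the filter let through because they were above the dim range in testis. Probe sets that were dim in all samples of the other tissue could only come out higher in testis, and they numbered 4 of 8 tested against male liver, 4 of 9 against male kidney and 6 of 8 against male hypothalamus. Counts of calls are given with this limit and are no support for a direction. Of the 8 member probe sets tested against male liver, 7 were higher and 1 lower in testis. Of all probe sets tested there, 66.5% were called, 32.5% as higher and 34.1% as lower. Against male kidney 7 of 9 members were higher and 1 was lower, and of all probe sets 66.3% were called, 29.8% as higher and 36.5% as lower. Against male hypothalamus 8 of 8 members were higher, and of all probe sets 74.4% were called, 28.9% as higher and 45.4% as lower. Of these 8, only Fdx1 and Star 1418729_at were above the dim range in male hypothalamus. Of these calls on all probe sets, 48.8%, 45% and 38.9% were higher in testis, and the last share became 53.9% after median centring. Cyp17a1 gave the largest of these differences: testis was at least 46.7-fold higher than male liver, 44.7-fold than male kidney and 32.7-fold than male hypothalamus. Hsd17b3 was at least 6.78-fold, 6.49-fold and 4.75-fold higher in the same order. Hsd17b1 was dim in testis and in all 3 male tissues and was not tested in these comparisons.

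Fdx1 and Akr1c18 did not follow the other members in testis. Fdx1 read 6392, 7313 and 5669 in male liver and 5428, 5387 and 4999 in male kidney, so that the gonad did not exceed either. It was lower in testis than in male liver by a log2 difference of -0.49 ± 0.18 (adjusted p = 0.0353 by limma) and differed from male kidney by -0.21 ± 0.17 (adjusted p = 0.295 by limma). The first of these calls was lost on leaving out testis 1, 2 or 3 or male liver 1 or 2, each on its own, and under other settings, with adjusted p from 0.0517 to 0.133. In male hypothalamus Fdx1 averaged 602 ± 48.3, and testis was higher there by 2.82 ± 0.14. Akr1c18 was lower in testis than in male kidney, where it read 1215, 973.1 and 1288, by a log2 difference of -3.44 ± 0.27 (adjusted p = 2.19e-06 by limma). It was dim in every testis sample and passed the filter only through male kidney, so the direction of this call was fixed. Testis was at least 9.69-fold lower.

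In ovary, all 9 probe sets tested were higher than in female liver, female kidney and female hypothalamus alike, where 46.3%, 37.2% and 36.9% of all probe sets tested were higher in ovary. After median centring, the share of all calls that were higher in ovary fell from 68.5% to 47.4% against liver and from 65.9% to 45.9% against kidney, and the 9 member calls remained. The filter largely set this count: 5 of the 9 were dim in all female liver samples, 2 in all female kidney samples and 6 in all female hypothalamus samples and passed only through ovary, while Hsd17b3, dim in ovary, was not tested. These 3 comparisons share the ovary samples. Cyp11a1 was dim in every female liver and hypothalamus sample, at least 83.8-fold lower than ovary in liver and 57.8-fold in hypothalamus. Hsd17b1 was dim in all female tissues other than ovary, which was at least 18.4-fold above liver, 17.4-fold above kidney and 12.7-fold above hypothalamus. Fdx1 had the smallest differences from liver and kidney, 1.27 ± 0.13 and 1.37 ± 0.14 on the log2 scale, and Akr1c18 differed from kidney by 2.93 ± 0.37.

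The order of the groups differed between members. For Star, Cyp11a1 and Hsd3b1 it ran from ovary to testis and then to the other tissues, and neither gonad overlapped the group below it. For Cyp17a1 testis and ovary overlapped, and ovary lay above female liver. For Fdx1 ovary led without overlap, and male liver (6460 ± 824), female liver (5290 ± 372), male kidney (5270 ± 237), female kidney (4950 ± 382) and testis (4550 ± 391) each overlapped the next. Both hypothalamus groups lay below, at 674 ± 50.3 in females and 602 ± 48.3 in males. For Akr1c18 ovary led, female kidney (1480 ± 982) and male kidney (1160 ± 165) followed with overlap, and testis (68 ± 47.7) came last.

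No member was called between males and females within a shared tissue. By limma, 0 of 3 probe sets tested passed in liver, 0 of 5 in kidney and 0 of 2 in hypothalamus, where 0.0507%, 0.232% and 0.0509% of all probe sets tested passed. At an unadjusted p under 0.05 these counts were 1, 0 and 0. The 1 was Cyp17a1 in liver, with 122.9, 119 and 65.06 in males, all dim, and 281.1, 265.4 and 124.8 in females. The lowest female sample lay just above the highest male sample, and the log2 difference, males minus females, was -0.86 ± 0.27 (adjusted p = 1 by limma). Each female sample was above the male sample of the same number, and with the sample number as a block the adjusted p by limma was 0.211, the lowest over its alternatives, which ran up to 1. Set against the floor of the male liver arrays, the female mean alone gave a bound of at least 1.74-fold. This bound holds for the means and not for single samples, and the difference behind it was not called. Cyp17a1 passed the filter here only through female liver, so the filter fixed its direction. Fdx1 differed between the sexes by 0.28 ± 0.14 in liver, 0.09 ± 0.14 in kidney and -0.15 ± 0.10 in hypothalamus. Of 21 tests of whether the sex difference of a member varied between tissues, 0 passed by limma and 2 had an unadjusted p under 0.05, where 0.237%, 0.0178% and 0.208% of all probe sets passed for liver minus kidney, liver minus hypothalamus and kidney minus hypothalamus.

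Other steroid enzymes did differ by sex in kidney, where 2 of 20 tested passed. Cyp7b1, an oxysterol 7alpha-hydroxylase, read 3570, 1482 and 3790 in male kidney and 89.87, 131.2 and 121 in female kidney (log2 4.09 ± 0.33, adjusted p = 0.00353 by limma). Akr1c12 had 69.1 ± 18.7 in males and 212 ± 20.3 in females (log2 -1.17 ± 0.16, adjusted p = 0.0333 by limma). By limma, 0 of the 23 tested in liver and 0 of the 12 in hypothalamus passed, and 3 and 2 had an unadjusted p under 0.05. Hsd3b5, a paralog of Hsd3b1 known as male-specific in mouse liver, read 1150, 184.1 and 812.7 in male liver and 5.456, 11.41 and 8.509 in female liver. These groups did not overlap, and the log2 difference of 3.45 ± 0.53 had an adjusted p of 0.252 by limma. Akr1c12 was dim in every male kidney sample and Hsd3b5 in every female liver sample, so the filter fixed the direction of both.

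RNA samples of male liver and female kidney stood apart for the members. In male liver 2, the technical replicate array carried several members at levels that the first array did not. The deposited intensity of Cyp11a1 was 10.3 on the first and 908.8 on the second array, the gap of rank 1 among 22626 probe sets. Hsd3b1 read 58.6 and 972.3 (rank 2), and Star 1418728_at read 16.6 and 279.4 (rank 5). In this RNA sample 3 member probe sets were among the 10 widest gaps, and in each of the other RNA samples 0 were. Akr1cl, a relative of Akr1c18 that is no member, held rank 3 with 131 and 1175.4, whereas Cyp21a1, a 21-hydroxylase that marks adrenal cortex, read 452.4 and 485.2. Without male liver 2 and with the same probe sets tested, testis exceeded male liver by 4.57 in place of 3.87 for Cyp11a1 and by 4.68 in place of 4.16 for Hsd3b1. Akr1c18, which read 75.43, 1313 and 546.6 in male liver, then went from 0.33 to -0.43 in males minus females, both with an adjusted p of 1.

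In female kidney, samples 1 and 2 differed from sample 3 on both arrays. Star 1418728_at read 340, 309.5 and 28.66, Cyp11a1 read 200, 154.7 and 12.1, and Hsd3b1 read 1115, 1131 and 116.6. Cyp21a1 moved with them, at 756.3, 665.5 and 257.1. The sum of the 4 adrenal cortex markers measured of 6 includes Cyp21a1, so it is no separate observation. It was 1104, 1040 and 563.3, against 546.1 to 665.9 in male kidney. The same sum was 965.7 to 1365 in male liver, 1238 to 1309 in female liver and 1787 to 2001 in ovary. In testis and hypothalamus it was 684.5 or less. Mc2r, the ACTH receptor of the adrenal, did not follow the members, at 139.5, 192.4 and 155.9. Mrap, its partner, did not follow them either, at 47.38, 22.86 and 24.01. Cyp11b2, the aldosterone synthase, read 161.1, 159.3 and 126.3, against 93.31 to 126.8 in male kidney. The part of adrenal tissue in these values was not tested. Without female kidney 3, the ovary's lead over female kidney was 3.44 in place of 4.38 for Hsd3b1, 5.49 in place of 6.13 for Cyp11a1, and 3.90 in place of 4.66 for Star 1418728_at. With the same probe sets tested, all 9 passed with any of these 3 samples left out.

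**Figure D3:**
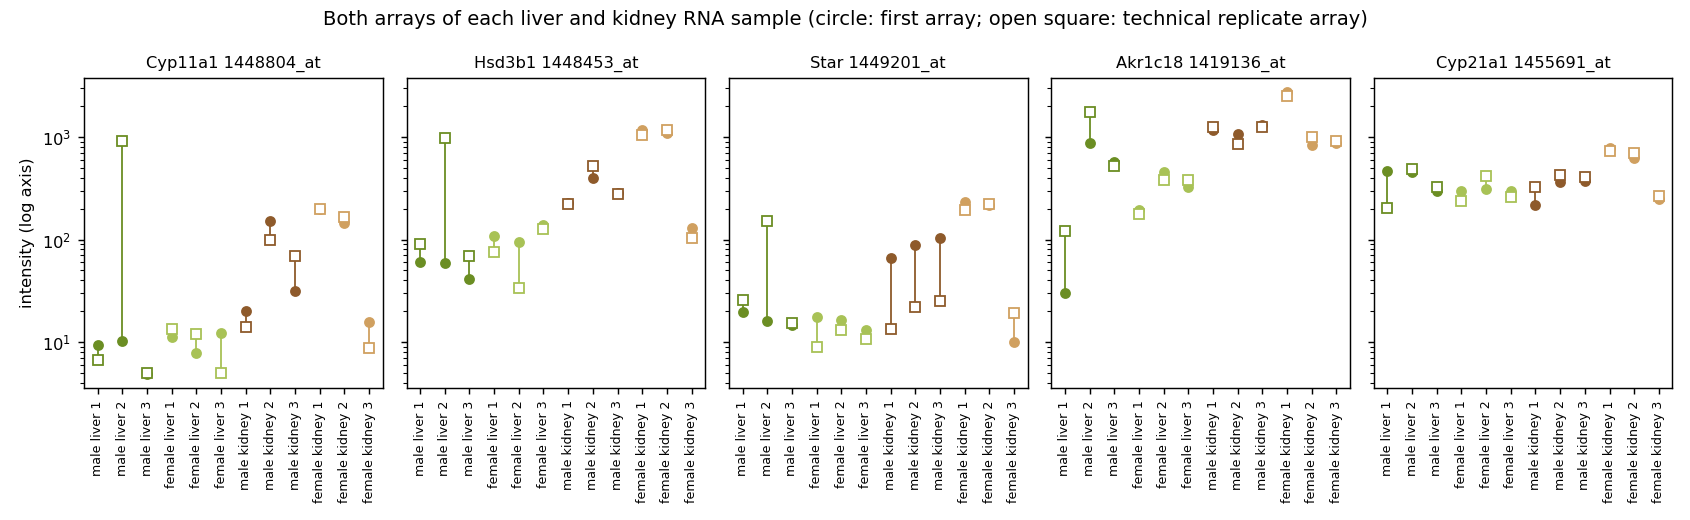
Deposited intensity on a log axis for both arrays of each liver and kidney RNA sample, a filled circle for the first array and an open square for the technical replicate array, joined by a line. Cyp11a1 reads 10.3 and 908.8 on the 2 arrays of male liver 2, while in female kidney 1 and 2 both arrays are high and in female kidney 3 both are low for Cyp11a1, Hsd3b1, Star and Cyp21a1.

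Relatives of Hsd3b1 and Akr1c18 on the lists had other tissue patterns than these members. The highest group mean was in liver for 3 and in kidney for 1 of the 4 Hsd3b relatives measured, and in liver for 5 and in kidney for 1 of the 6 Akr1c relatives, and in a gonad for 0 of either family. Akr1cl, which was on no list, went the other way, with a mean of 13200 in ovary, 5100 in testis and at most 355 in the other groups. Akr1c14 was highest in male liver (2790 ± 101) and had 1610 ± 306 in ovary, far above testis. The next examples were chosen after their values were seen. Hsd3b2 averaged 1620 ± 346 in male and 1420 ± 386 in female kidney and was at 22.9 ± 11 in testis and 19.8 ± 5.92 in ovary. Hsd3b3 averaged 2860 ± 343 in male and 2560 ± 237 in female liver, against 161 ± 44.7 in testis and 118 ± 40.2 in ovary. Both were lower in the gonads than in liver and kidney of the same sex (limma, log2 differences from -4.56 for Hsd3b2 against male kidney to -2.18 for Hsd3b2 against female liver). Hsd3b2 was dim in every sample of both gonads, and Hsd3b3 in every ovary sample. In those comparisons they passed the filter only through liver or kidney, so the direction was fixed and the sizes rest on dim values. Akr1c12 averaged 1810 ± 422 in male and 2000 ± 231 in female liver, against 34.1 ± 18.7 in testis and 41.2 ± 10.9 in ovary.

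The genes with the most similar patterns over the 24 RNA samples differed from member to member. Likeness was Pearson's r of log2 values, which rests mainly on the 8 group levels that samples share, and is given as a description. For Cyp11a1 the closest were Akr1cl (r = 0.981), Hsd3b1 (r = 0.976) and Mgarp (r = 0.972), and for Hsd3b1 they were Cyp11a1, Akr1cl (r = 0.971) and Wt1 (r = 0.968). Star was closest to Cited4 (r = 0.967), Prss35 and Sytl4, and Cyp17a1 to Top2a, Amhr2 (r = 0.968 each) and Tnni3. Hsd17b3 was closest to Ccna1 (r = 0.980), a cyclin of male meiosis, Stag3 (r = 0.975), a cohesin subunit of meiosis, and Ppm1d. Hsd17b1 was closest to Dcpp1 (r = 0.988), Clca1 and Thbs4, Akr1c18 to Plet1 (r = 0.953), Tpm4 and Nupr1, and Fdx1 to Ddost (r = 0.954), Ptbp1 and Rbpms.

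Markers of the steroid-making cells gave a mixed picture in the gonads. Their counts are read against all probe sets tested, of which 24.9% were higher and 45.7% lower in testis. Of 6 Leydig cell markers listed, 3 had a probe set, and Insl3, Lhcgr and Hsd3b6 had none of their own symbol alone. Of the 3 tested, Ptgds was higher in testis (2770 ± 139 against 758 ± 391). Inha (2890 ± 324 against 11600 ± 947) and Hsd11b1 (384 ± 88 against 625 ± 118) were lower. Hsd11b1 lost its call under both other scalings. All 5 tested luteal and theca cell markers were lower in testis, among them Sfrp4 by a log2 difference of -4.53. Of 7 granulosa cell markers 6 were lower in testis and 1 higher, and Amh, the hormone of growing follicles and fetal testis, had 53.6 ± 20.1 in testis against 1180 ± 267 in ovary (log2 -3.59 ± 0.21). After median centring or quantile normalization 5 of the 7 were lower, Fshr losing its call. The testis mean of Amh lay in the dim range, and Amh passed the filter through ovary, which fixed its direction. Ptgfr of the luteal and theca list and Nr5a2 of the granulosa list also had testis means in the dim range and passed through ovary.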

How the data were processed

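The deposited file gives each probe set a linear intensity on every array, made with software not given in the sources used here. Control probe sets (64) were left out. Of the remaining 22626, 20380 have 1 gene symbol in the platform annotation, 691 several and 1555 none. Array medians ran from 163.4 to 276, and arrays were set to the same 2% trimmed mean. To each intensity 48.3 was added, the 20th percentile of all values, which understates the differences of dim probe sets. After taking log2, both arrays of each RNA sample were averaged. The lowest correlation between such arrays was 0.9656.

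A probe set was tested where it exceeded the 40th percentile in at least 3 RNA samples of a comparison. Tests used lmFit and eBayes of limma 3.58.1 (R 4.3.3), 2 groups per fit, with Benjamini-Hochberg adjustment over all probe sets tested and a threshold of 0.05. Interactions came from a joint fit of liver, kidney and hypothalamus. The fit was tested on simulated data. Python 3.11.15 with matplotlib 3.10.9 drew the figures.

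Members and lists were chosen with earlier results of these data known. All member probe sets are named, and of each other list the 4 genes with the smallest p in testis against ovary, besides genes said to be chosen otherwise and genes whose values bear on a member. Those on family members, kidney and liver sexes and adrenal markers were chosen after their values were seen. Likeness names 3 genes per member, from the brightest probe sets. Same-numbered samples of the 2 sexes were correlated in liver (r = 0.535, 0.139 and 0.482), kidney (0.591, 0.426 and 0.627) and hypothalamus (0.392, 0.101 and 0.327). The numbers seem to pair these samples, but for sample 2 of liver and hypothalamus this is not clear. Male liver 2 with female liver 3 gave 0.287, and male hypothalamus 2 with female hypothalamus 3 gave 0.091. In testis and ovary the values for the same numbers were low (0.0417, 0.146 and 0.0423). Protein sequences were not used here. Alternatives covered scaling, pseudocount, filter, single arrays, 1 fit of all groups, the sample number as a block, and leaving out each RNA sample.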

Additional observations from a re-analysis of the deposited data

How the results depend on the processing

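The number of arrays limits the precision, and dim values give bounds only. Of 1413 recomputed differences of single member probe sets, 1388 kept direction and side of the threshold, 14 lost a call (Fdx1 in testis against male liver, adjusted p 0.0517 to 0.133) and 1 gained one (Cyp17a1 in testis against ovary, 0.82 after median centring). In 10 an uncalled difference changed sign. For Akr1c18 these were, males minus females, -0.02 in liver on first arrays only, -0.43 in liver without male liver 2 (range over left-out samples -0.43 to 1.31) and 0.32 in kidney without female kidney 1 (range -0.42 to 0.32). For Star 1418729_at they were 0.05 in kidney without female kidney 2 (range -0.34 to 0.05), and in hypothalamus 0.06 on technical replicate arrays only and 0.03 without male hypothalamus 3 (range -0.16 to 0.03).

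Leaving out 1 RNA sample with the filter applied again, the members called numbered 7 to 8 for testis against ovary (9 with all samples), 3 to 8 for testis against male liver, 4 to 7 against male kidney, 2 to 8 against male hypothalamus, 4 to 9 for ovary against female liver, 7 to 9 against female kidney and 3 to 9 against female hypothalamus. Probe sets above the filter in 1 gonad only then reach 2 samples and are no longer tested. Keeping every probe set that the full comparison tested, an alternative chosen after seeing the data, these counts were 9, 7 to 8, 8, 8, 9, 9 and 9 in the same order. With the sample number as a replicate block, the paired fit, the counts were 9 in testis against ovary, 8 against each male tissue, 9 in ovary against each female tissue and 0 between the sexes and for the interactions, as without the block, and no member call changed.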
